A study of Homo sapiens with 36 samples.

Results

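The histone genes of A549 cells were followed through a chronic exposure to cigarette smoke extract (CSE). A gene was taken when its symbol in the platform annotation began with H1-, H2AC, H2BC, H3C or H4C and a number, alone on its transcript cluster (the unit in which this array summarises the probes of a gene) and without being a pseudogene. The rule used names only. It found 60 genes of 18417 that could be named, 9 of the H1 family, 14 of H2A, 16 of H2B, 8 of H3 and 13 of H4. H4C14 and H4C15 carried the same value on each of the 36 arrays, so they were counted once, which left 59. Of the 73 protein-coding histone genes of these names in RefSeq, 13 were not among them, and 12 of these shared their clusters with another symbol. The name rule also takes H1-7 and H1-8, germline linker histones, and H1-10, a linker histone made outside S phase, which are not replication-dependent by common knowledge.

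A549 is a line from a human lung adenocarcinoma that is used as a model of the alveolar epithelium. The cells were deprived of serum for a day and then grown in medium with 1% fetal bovine serum. Control cells (Ctrl) received no CSE. The exposed cells were kept in CSE at 1%, 5% or 10%, renewed daily, and both were passaged weekly up to 1, 3 or 5 weeks. Each of the 12 groups had 3 arrays (Human Gene 1.0 ST) from experiments the study calls independent. Levels are RMA values on the log2 scale, where a difference of 1 is a doubling.

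Nucleosomes are built from H2A, H2B, H3 and H4, and linker histone H1 binds where the DNA enters and leaves. Most of these proteins come from intron-less genes that lie in clusters and are switched on together when DNA replicates. Their messages end in a stem-loop bound by SLBP in place of a poly(A) tail and are destroyed when replication stops, so they are used as a sign of S phase. The array reads total RNA, and the labels do not say how the RNA was primed.

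Of the members, 49 lay in the large cluster on chromosome 6, 5 and 2 in the smaller clusters on chromosome 1, and 4 elsewhere. The bases before the start of 4 of them are shown because these genes moved in different ways or carried different promoter elements. H1-5 and H2BC14 had the steepest falls of the H1 and H2B families with CSE 10% at each week, H2BC12 changed little, and H4C8 went up. Each run is the 160 bases before the RefSeq start, 5′ to 3′ on the gene's strand, in GRCh38.p14. Capitals mark 4 motifs on either strand: the box CCAAT, the start element TATAAA, the octamer ATTTGCAT known from H2B promoters, and the H1 box, spelled AAACACA here. Motifs on the other strand appear as their reverse complement.
H1-5 (chr6:27867589-27867748, minus strand): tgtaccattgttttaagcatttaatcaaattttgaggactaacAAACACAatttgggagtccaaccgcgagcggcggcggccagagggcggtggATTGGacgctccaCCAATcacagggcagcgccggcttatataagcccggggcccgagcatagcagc
H2BC14 (chr6:27814862-27815021, plus strand): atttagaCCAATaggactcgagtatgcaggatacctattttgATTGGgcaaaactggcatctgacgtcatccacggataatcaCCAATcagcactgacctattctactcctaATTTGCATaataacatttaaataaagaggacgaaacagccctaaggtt
H2BC12 (chr6:27146859-27147018, minus strand): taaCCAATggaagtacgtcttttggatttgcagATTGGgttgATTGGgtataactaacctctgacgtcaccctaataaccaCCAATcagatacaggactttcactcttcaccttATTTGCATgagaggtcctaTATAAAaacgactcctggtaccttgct
H4C8 (chr6:26285535-26285694, minus strand): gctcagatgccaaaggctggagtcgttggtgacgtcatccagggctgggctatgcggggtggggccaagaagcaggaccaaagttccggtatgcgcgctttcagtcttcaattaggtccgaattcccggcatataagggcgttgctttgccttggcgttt
H2BC14 and H2BC12 both held CCAAT and the octamer, and H4C8 held none of the 4 motifs in this window.

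The motifs were counted in the 250 bases before the start of 55 members found in the promoter table, against 35116 promoters of all genes. CCAAT stood in 46 of the 55 members (83.6%) and in 32% of all promoters. TATAAA stood in 35 members (63.6%) against 10.7%, and the octamer in 23 members (41.8%) against 1.63%. The octamer was found in 10 of 13 H2A and 13 of 16 H2B promoters and in no promoter of the other families. AAACACA was found in 7 of 9 H1 promoters, in none of the others, and in 4.82% of all promoters. CCAAT was present in 3 of 11 H4 promoters. A match of letters is a description and not a binding site.

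Depth has no counterpart on arrays, and the number of arrays limits the precision. The medians of the 36 arrays lay between 6.72 and 6.91. The epithelial markers KRT8 and KRT18 were in the top percent of all clusters, at means of 13.37 and 13.28, and EPCAM lay between 8.27 and 10.98. CLDN4 was the lowest epithelial marker measured, at a mean of 7.08 and percentile 54.7. SFTPC, which defines mature alveolar type II cells, had a mean of 6.14, at percentile 39. ABCA3, also a type II marker, had a mean of 8.57, at percentile 76.5. The leukocyte marker PTPRC had a mean of 3.87, at percentile 8.7, while CD14 had 6.54, at percentile 45.8. The control arrays of week 5 stood apart from the other arrays. Their titles give 5 weeks, but their free-text descriptions give 3. For week 5 the main counts, and the genes described with a change at that week, are therefore also given against the mean of the controls of weeks 1 and 3, called the earlier controls below. This mean joins weeks whose levels differed, for the histone genes and for genes of the cell cycle. A value near it can lie above the controls of week 1 and below those of week 3.

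The median level over the histone genes was then read on each array. At 1 week it was 7.38, 7.46 and 7.74 on the control arrays, 7.97, 8.17 and 8.18 with CSE 1%, 7.14, 7.07 and 7.10 with 5%, and 7.14, 7.17 and 6.85 with 10%. At 3 weeks the controls lay at 8.13, 8.70 and 8.59 and CSE 10% at 6.83, 6.73 and 6.69, with CSE 1% from 7.12 to 7.95 and CSE 5% from 7.13 to 7.88. At 5 weeks the controls lay at 9.23, 9.06 and 9.06, CSE 1% from 8.49 to 9.04, CSE 5% from 7.88 to 8.13, and CSE 10% at 7.45, 7.50 and 7.37. The arrays of CSE 5% and 10% lay below the controls of their week at every time, and those of CSE 1% lay above them at 1 week and below them later. The controls themselves went up from week to week. In RNA from whole cultures, fewer cells in S phase and less histone RNA per cell cannot be told apart.

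**Figure D1:**
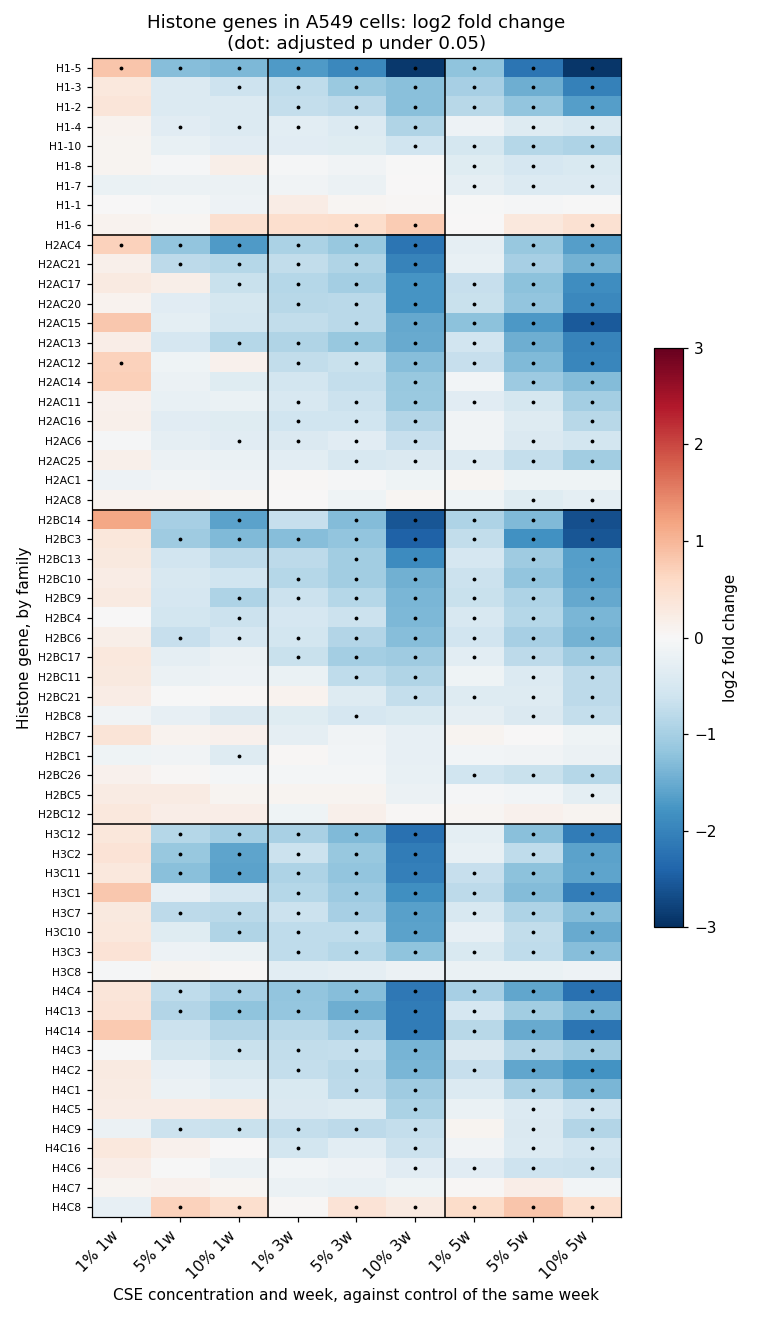
Log2 fold change of the 59 histone genes (rows, by family) at each CSE concentration relative to same-week controls (columns). Blue is lower and red higher than control, and a dot marks an adjusted p under 0.05. Most rows turn darker blue from 1% to 10% at 3 and 5 weeks, while H4C8 and H1-6 are red with 5% and 10% at those weeks.

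The first question was how each dose changed the histone genes against the control of the same week. A gene was called when the Benjamini-Hochberg adjusted p of limma, over all 33297 clusters, was under 0.05. At 1 week CSE 10% lowered 23 of the 59 genes and raised 1, H4C8, where 8.44% of all clusters were lower and 8.27% higher. The median log2 fold change of the histone genes was -0.40, against -0.02 for all clusters. CSE 5% lowered 13 and raised 1, again H4C8, against 4.84% lower and 5.99% higher of all clusters, with a median of -0.25. CSE 1% went the other way: 3 genes rose (H1-5, H2AC12 and H2AC4) and 0 fell, where 3.41% of all clusters were higher and 1.90% lower, and the median was 0.25. At an unadjusted p under 0.05, 15 were higher and 1 was lower, and the separate fit of these 6 arrays also gave 0 lower genes. The count of 3 became 0 without control replicate 1 or 2 or without CSE 1% replicate 1 or 2, and 1 without CSE 1% replicate 3. Without control replicate 1 the count raised by CSE 10% was 2. Without control replicate 3 the counts of lower genes were 15 for CSE 10% and 8 for CSE 5%, and without CSE 10% replicate 3 that for CSE 10% was also 15.

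At 3 weeks the falls were larger. CSE 10% lowered 44 of the 59 genes, with 12.5% of all clusters lower, and raised 2, H1-6 and H4C8, with 14% higher. Their median log2 fold change was -1.15, against 0.01 for all clusters. The 44 were 5 of 9 H1, 12 of 14 H2A, 10 of 16 H2B, 7 of 8 H3 and 10 of 12 H4 genes. The H3 family had the lowest median, -1.73, and H1 the highest, -0.59. CSE 5% lowered 39 and raised the same pair, H1-6 and H4C8, against 9.93% lower and 9.70% higher of all clusters, with a median of -0.76. CSE 1% lowered 31 and raised 0, against 5.81% lower and 5.67% higher, with a median of -0.60. At an unadjusted p under 0.05, 2 genes were higher with CSE 1%, and the separate fit gave 0. Without control replicate 1 or CSE 1% replicate 3 the 0 became 1. The 2 higher genes of CSE 10% became 1 without any one of its arrays or control replicate 1 or 2, and those of CSE 5% without control replicate 2 or 3 or CSE 5% replicate 1 or 3. The count of 31 was 12 without control replicate 2, 16 without control replicate 3, 11 without CSE 1% replicate 1, 18 without CSE 1% replicate 2, 5 in a separate fit of these arrays and 20 after centring on housekeeping genes.

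At 5 weeks the counts for CSE 5% and 10% against the week-5 controls were higher still, and so was the background. CSE 10% lowered 50 genes, with 39.6% of all clusters lower, and raised H1-6 and H4C8, with 21.9% higher. CSE 5% lowered 48 and raised H4C8, against 40.3% and 23%. CSE 1% lowered 31 and raised H4C8, against 33.5% and 20.3%. The 2 raised by CSE 10% became 1 without control replicate 2 or 3 or CSE 10% replicate 1 or 2. The medians of the histone genes were -1.27, -0.79 and -0.37 in that order, and those of all clusters -0.17, -0.17 and -0.14. For CSE 1% the count was 15 in the separate fit, and it dropped to 9 when control replicate 1 was left out, to 17 for CSE 1% replicate 2 and to 10 for CSE 1% replicate 3. Against the mean of the controls of weeks 1 and 3 the picture changed. CSE 10% then lowered 27 genes and raised 1 (16.0% of all clusters lower, 15.0% higher), with a median of -0.37. CSE 5% lowered 3 and raised 1 (13% and 13.1%), with a median of -0.06. CSE 1% lowered 0 and raised 17 (7.43% and 7.86%), with a median of 0.28. The direction at CSE 1% and the count at CSE 5% in week 5 thus depended on which controls were used. By family, CSE 10% lowered 4 of 9 H1, 7 of 14 H2A, 9 of 16 H2B, 3 of 8 H3 and 4 of 12 H4 genes against the earlier controls, and 7, 13, 13, 7 and 10 against the week-5 controls.

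**Figure D2:**
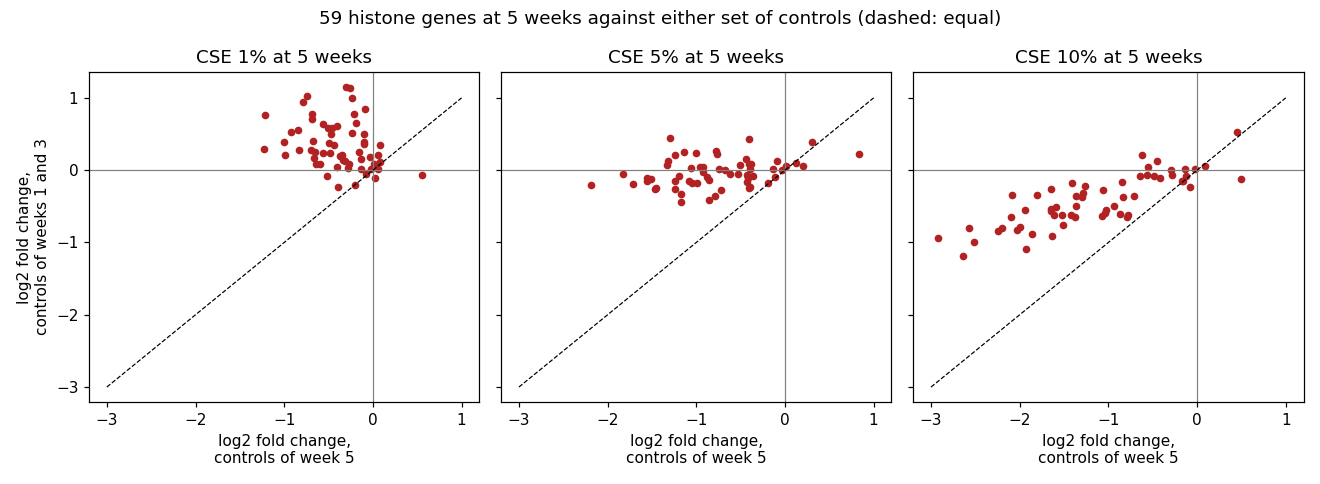
Log2 fold change of the 59 histone genes at 5 weeks against the week-5 controls (x axis) and against the mean of the controls of weeks 1 and 3 (y axis), for CSE 1%, 5% and 10%. Points above the dashed line fell less against the earlier controls. With CSE 1% most points change sign, and with CSE 10% most stay below 0.

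Comparing concentrations within a week leaves the controls out. CSE 10% against CSE 1% lowered 35 of the 59 genes at 1 week, 30 at 3 weeks and 39 at 5 weeks, where 7.17%, 6.26% and 4.95% of all clusters were lower. The medians of the histone genes were -0.57, -0.58 and -0.82, against 0.02, 0.02 and -0.01 for all clusters. Of the 39 at 5 weeks, 12 of 14 H2A genes and 7 of 8 H3 genes were lower, against 4 of 9 H1 genes. H4C8 at 1 week was the 1 gene that was higher with 10% than with 1% in these 3 comparisons. The count at 3 weeks was 13 without CSE 1% replicate 3 and 15 in the separate fit. CSE 10% differed less from CSE 5%: 1, 7 and 5 genes were lower at 1, 3 and 5 weeks, against 2.18%, 0.757% and 1.80% of all clusters. At an unadjusted p under 0.05 these were 6, 31 and 32. The single gene at 1 week, H2AC17, was lost without any one of the 3 CSE 5% arrays or without CSE 10% replicate 2 or 3. At 3 weeks the 7 became 0 without CSE 5% replicate 2, 2 without CSE 10% replicate 2, 3 without CSE 10% replicate 3, 4 without CSE 10% replicate 1 and 0 in the separate fit. At 5 weeks the 5 became 0 without CSE 10% replicate 2, 1 without CSE 10% replicate 1 or CSE 5% replicate 1 or 3, and 2 without CSE 5% replicate 2.

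The order of the group means followed the concentration in most members. From 1% over 5% to 10%, the mean fell at each step in 43 genes at 1 week, 37 at 3 weeks and 50 at 5 weeks, while 19.9%, 19.4% and 22.2% of all clusters did so. With the control placed before 1%, the same order held in 4, 33 and 48 genes, against 8.89%, 10.2% and 15.4% of all clusters. The low number at 1 week goes with the higher values of CSE 1% in that week.

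**Figure D3:**
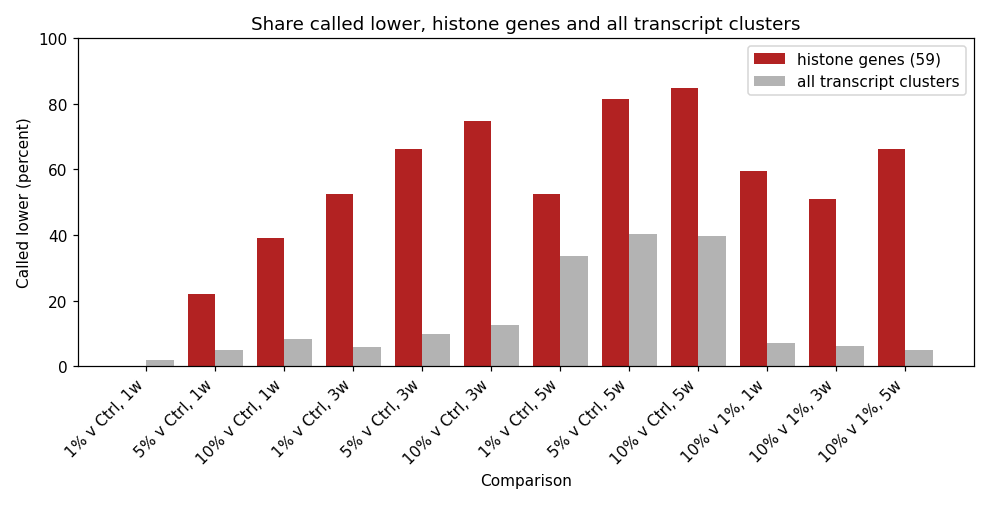
Share of genes called lower (percent, adjusted p under 0.05) among the 59 histone genes (red bars) and among all 33297 clusters (grey bars), for 9 comparisons with control and 3 of CSE 10% with CSE 1%. The red bar is higher than the grey bar in each comparison but CSE 1% at 1 week, where it is 0.

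In cells without CSE the histone genes rose with time. From 1 to 3 weeks 21 of 59 were higher, against 6.23% of all clusters, with a median of 0.45, and the count was 12 without control replicate 2 of week 3 and 13 in the separate fit. From 3 to 5 weeks 37 were higher, against 31.7% of all clusters, with a median of 0.51 for the histone genes and 0.11 for all clusters. That count was 23 without control replicate 1 of week 3 and 24 without control replicate 1 of week 5. H1-5 rose by 1.62 ± 0.24 (SE) and then by 1.17 ± 0.24 on the log2 scale. H2AC4 rose by 1.30 ± 0.21 from 1 to 3 weeks and H2BC3 by 1.40 ± 0.26 from 3 to 5 weeks. H4C8 changed by -0.60 and then by -0.32.

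Whether the response changed with time was tested on the differences between weeks, which rest on the control arrays of both weeks. For CSE 10% the effect was lower at 3 weeks than at 1 week in 18 histone genes, where 4.46% of all clusters were, and at 5 weeks in 26, against 16.0%. The 18 became 11 without control replicate 1 of week 1 and 10 without control replicate 2 of week 3. For CSE 5% these numbers were 3, against 1.54%, and 18, against 15.7%. The 3 became 1 without control replicate 1 or 2 of week 1, without CSE 5% replicate 2 of week 1 or without CSE 5% replicate 1 of week 3, and 5 without CSE 5% replicate 2 of week 3. The 18 became 9 and 11 without control replicates 1 and 2 of week 1, 8 without control replicate 1 of week 5, and 11 without CSE 5% replicate 1 or 2 of week 1. For CSE 1%, whose direction had turned, 24 genes were lower at 3 weeks than at 1 week, against 2.74%, and 26 at 5 weeks, against 10.2%. The 24 ranged from 11 to 38 and the 26 from 12 to 31 when single arrays were left out. The lowest were 11 without control replicate 2 or CSE 1% replicate 1 of week 3, and 12 without control replicate 1 of week 1 or of week 5, and the 38 came without CSE 1% replicate 3 of week 3. Other arrays that moved these counts by over 1.5 times gave, for the 24, 12 (control replicate 1 or CSE 1% replicate 2 of week 1), 14 (control replicate 3 of week 3) and 15 (CSE 1% replicate 3 of week 1 or replicate 2 of week 3). For the 26 they gave 14 and 17 (CSE 1% replicates 2 and 3 of week 1) and 15 and 13 (CSE 1% replicates 2 and 3 of week 5).

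Among the linker histones H1-5 had the widest range, with group means spread over 4.12 on the log2 scale. At 1 week its level was 7.28, 7.45 and 7.74 in controls, 8.24, 8.41 and 8.36 with CSE 1%, 6.05, 6.24 and 6.37 with 5%, and 6.31, 6.13 and 6.02 with 10%. At 3 weeks it was 8.69, 9.37 and 9.27 in controls, 7.03, 7.34 and 7.85 with 1%, 6.92, 7.88 and 6.72 with 5%, and 6.22, 6.16 and 6.28 with 10%. At 5 weeks it was 10.71, 9.89 and 10.22 in controls, 9.52, 8.96 and 8.71 with 1%, 8.17, 8.22 and 7.88 with 5%, and 7.36, 7.51 and 7.20 with 10%. No exposed array overlapped the controls of its week, and CSE 1% lay above them at 1 week and below them afterwards. Against the earlier controls, CSE 1% at 5 weeks was higher, by 0.76 ± 0.21 (limma adjusted p = 0.0120). Against control, CSE 10% changed H1-5 by -1.34, -2.88 and -2.92 at 1, 3 and 5 weeks, each ± 0.24 (limma adjusted p of 0.00015, 3.37e-10 and 1.44e-10), which is 2.53-fold, 7.38-fold and 7.55-fold. Against the controls of weeks 1 and 3 the last value was -0.94 ± 0.21, and CSE 10% against CSE 1% gave -2.18, -1.18 and -1.71.

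H1-4, a main linker histone of dividing cells, moved in the same direction by less. With CSE 10% it changed by -0.40 at first, then by -0.91 and -0.49, each ± 0.09, and was lower than with CSE 1% in each week. In week 5 H1-4 with CSE 10% stood at -0.08 ± 0.08 against the earlier controls, which was not called. H1-2 and H1-3 were called lower in 6 and 7 of the 9 comparisons with control. The germline linker histones H1-7 and H1-8 were lower in 3 comparisons each, all at 5 weeks, and none of these calls was made against the earlier controls (-0.11 for H1-7 and 0.13 for H1-8 with CSE 10%). H1-10 was lower in 4, and against the earlier controls with CSE 5% and 10% at 5 weeks. H1-1 was called in none, with group means spread over 0.23.

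H1-6, a linker histone of the testis, went up from a low level, with a mean of 5.45 at percentile 28.2 of all clusters. Whether H1-6 was above background was not tested. Its controls at 3 weeks were 5.40, 4.87 and 5.27, and its CSE 10% arrays 5.70, 5.94 and 6.18. The groups did not overlap, and the difference was 0.76 ± 0.18 (limma adjusted p = 0.00214). It was higher by 0.53 ± 0.18 with CSE 5% at 3 weeks and by 0.45 ± 0.18 with CSE 10% at 5 weeks (0.53 ± 0.16 against the controls of weeks 1 and 3). The other testis members behaved differently: H2AC1 was called in no comparison and H2BC1 was lower in 1, CSE 10% at 1 week. H3-4, a testis H3 gene outside the name rule, was lower with CSE 5% at 5 weeks (-0.29), but not against the earlier controls (-0.17).

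Of the H2A genes, which encode the core histone paired with H2B, H2AC4 had the clearest fall at 1 week. Its levels then were 9.32, 9.41 and 9.97 in controls, 10.19, 10.36 and 10.23 with CSE 1%, 8.42, 8.38 and 8.37 with 5%, and 7.95, 7.79 and 7.89 with 10%. The 4 groups did not overlap, and CSE 10% differed by -1.69 ± 0.21 from control (limma adjusted p = 4.41e-07) and by -2.38 ± 0.21 from CSE 1%. At 3 weeks it differed by -2.19 ± 0.21 from control, and at 5 weeks by -1.65 ± 0.21. The last value was -0.26 ± 0.18 against the earlier controls, not called. H2AC15 was called lower in 2 of the 6 comparisons at 1 and 3 weeks, CSE 10% at 3 weeks among them. At 5 weeks its controls were 10.50, 10.32 and 10.47 and its CSE 10% arrays 7.97, 7.87 and 7.92. The difference was -2.51 ± 0.29, or -0.99 ± 0.25 against the controls of weeks 1 and 3. Its difference at 1 week, -0.55 ± 0.29, was not called. H2AC12 likewise did not differ with CSE 10% at 1 week (0.14 ± 0.19) and changed by -1.29 and -1.95 at 3 and 5 weeks, each ± 0.19, the latter being -0.55 ± 0.16 against the earlier controls. H2AC8 was called lower at 5 weeks alone, by -0.36 with CSE 5% and by -0.29 with CSE 10%, each ± 0.10. Neither call was made against the earlier controls, where the values were -0.08 and -0.0031, each ± 0.09.

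H2BC14 and H2BC3 led the H2B genes. At 3 weeks H2BC14 stood at 11.77, 12.51 and 12.45 in controls, 10.79, 11.70 and 12.13 with CSE 1%, 10.59, 11.99 and 10.27 with 5%, and 9.64, 9.71 and 9.70 with 10%. CSE 1% and 5% each overlapped the controls and CSE 10% did not, at a difference of -2.56 ± 0.36 (adjusted p = 3.31e-06), or 5.90-fold. At 5 weeks CSE 10% differed by -2.64 ± 0.36 from control and by -1.72 ± 0.36 from CSE 1%. H2BC3 at 3 weeks was 7.78, 8.29 and 8.45 in controls and 5.84, 5.69 and 5.69 with CSE 10%, again apart, at -2.43 ± 0.26, and at 5 weeks the difference was -2.57 ± 0.26. Against the earlier controls the week-5 values were -1.19 ± 0.31 for H2BC14 and -0.80 ± 0.23 for H2BC3, both called.

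H2BC12, one of the H2B genes known to make a polyadenylated message as well, showed no such change. Its levels at 3 weeks were 11.32, 11.38 and 11.40 in controls and 11.25, 11.46 and 11.47 with CSE 10%, which overlapped. The log2 fold changes of H2BC12 against control ran from -0.12 to 0.31 over the 9 comparisons, each ± 0.11, and none was called. H2BC5, chosen after its values were seen, was called in 1 comparison, CSE 10% at 5 weeks, at -0.28 ± 0.12, and not against the earlier controls (-0.07). Of 9 measured genes known for such messages, CSE 10% lowered 2 and raised 1 by week 1 and lowered 6 and raised 1 by week 3. By week 5 it lowered 7 and raised 1 (5 and 0 against the earlier controls). The medians were -0.15, -0.71 and -0.78, so the list held genes of both kinds. Of all clusters 8.44%, 12.5% and 39.6% were lower.

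Among the H3 genes, whose products carry much of the modification code of chromatin, 7 of 8 were lower with CSE 10% at 3 and at 5 weeks. At 5 weeks 3 were lower against the earlier controls, H3C2, H3C10 and H3C12, by -0.62, -0.75 and -0.64. H3C12 stood at 8.13, 8.82 and 8.59 in the 3-week controls, 7.15, 7.48 and 7.95 with CSE 1%, 6.87, 7.56 and 7.13 with 5%, and 6.44, 5.98 and 6.42 with 10%. Each exposed group lay below the controls, at -0.98, -1.32 and -2.23, each ± 0.21. CSE 10% differed from CSE 1% by -1.25 and from CSE 5% by -0.91. H3C2 and H3C11 had fallen by 1 week, with changes of -1.59 ± 0.21 and -1.60 ± 0.24 with CSE 10%. H3C8 was called in none of the 9 comparisons, with group means spread over 0.31.

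Of the H4 genes, H4C4 stood at 8.62, 8.93 and 8.84 in the 3-week controls and at 6.68, 6.49 and 6.77 with CSE 10%. The arrays did not overlap, and the difference was -2.15 ± 0.25 (adjusted p = 9.93e-08). At 5 weeks it was -2.24 ± 0.25, or -0.85 ± 0.21 against the controls of weeks 1 and 3. H4C13 was called lower in 8 of the 9 comparisons. H4C14 and H4C15, whose own clusters held the same values, were called lower in 5. With CSE 10% they changed by -2.10 and -2.19 at 3 and 5 weeks, each ± 0.33. The week-5 value was -0.80 ± 0.28 against the earlier controls. The clusters that carry both symbols, outside the rule, stood at -0.12 at 3 weeks, not called, and at -0.73 at 5 weeks, called lower. These shared clusters were not compared with the earlier controls. H4C3 changed by -1.40 ± 0.19 at 3 weeks. H4C7 was called in none.

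H4C8 went against the rest. At 1 week its levels were 9.90, 10.19 and 9.96 in controls, 9.75, 9.76 and 9.81 with CSE 1%, 10.82, 10.68 and 10.64 with 5%, and 10.49, 10.57 and 10.49 with 10%. The arrays of 5% and 10% lay above the controls without overlap, by 0.70 ± 0.10 (adjusted p = 9.63e-06) and 0.50 ± 0.10. At 3 weeks H4C8 was higher by 0.41 and 0.27 with 5% and 10%, each ± 0.10. At 5 weeks it was higher by 0.55, 0.84 and 0.50 with 1%, 5% and 10% against the week-5 controls. Against the earlier controls the week-5 values were -0.07, 0.22 and -0.12, and none was called. H4C8 was called higher in 7 of the 9 comparisons with control, the most of any member, and in 4 of the 6 at 1 and 3 weeks.

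**Figure D4:**
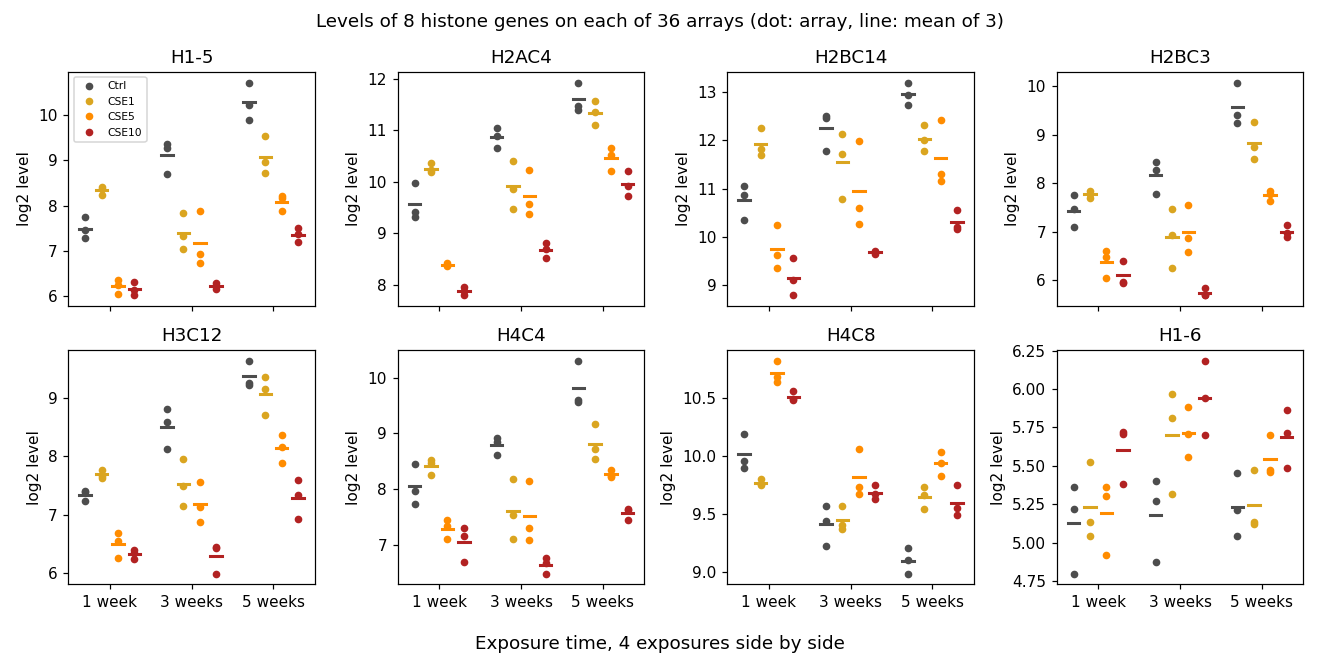
Log2 level of 8 histone genes on each array (dots) with the mean of 3 arrays (lines), for control, CSE 1%, 5% and 10% at 1, 3 and 5 weeks. In 6 genes the CSE 10% dots lie below the controls at each time, and in H4C8 and H1-6 they lie above.

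Counted over the 9 comparisons with control, 31 of the 59 genes were called lower in 6 or more and none in all 9. The share of all clusters called that often was not counted, and the comparisons of a week share their control arrays. At 5 weeks 33.5%, 40.3% and 39.6% of all clusters were lower with CSE 1%, 5% and 10%. In the 6 comparisons at 1 and 3 weeks, 32 genes were called lower in 3 or more and 13 in 5. The 7 genes called lower in 8 were H1-5, H2BC3, H2BC6, H3C7, H3C11, H4C4 and H4C13. A further 8 genes were called lower in none: H1-1, H1-6, H2AC1, H2BC7, H2BC12, H3C8, H4C7 and H4C8. Of these 8, H1-1, H1-6, H2AC1, H2BC7, H3C8 and H4C7 had mean levels at percentiles 24.3, 28.2, 26.9, 38.6, 32.9 and 17.6 of all clusters. No detection values were used, so whether these 6 were above background was not tested. Many histone coding sequences are nearly alike, and a cluster can take signal from a copy of its gene.

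H2A and H2B genes often sit head to head and share the stretch between their starts. By RefSeq starts at most 500 bases apart on opposite strands, 9 such pairs had both genes among the members, with 215 to 248 bases between the starts. With CSE 10% both partners were lower in 1 pair at 1 week, in 6 at 3 weeks and in 8 at 5 weeks, or in 3 against the earlier controls. Among all members, 5 of 14 H2A and 6 of 16 H2B genes were lower at 1 week. The counts were 12 and 10 at 3 weeks, 13 and 13 at 5 weeks, and 7 and 9 against the earlier controls. Shares of all clusters lower were 8.44%, 12.5% and 39.6%, and 16.0% against the earlier controls. Whether partners fell together more often than other H2A and H2B genes was not tested. Partners differed in size. At 3 weeks H2AC14 and H2BC14 had log2 fold changes of -1.15 and -2.56, the widest gap of the 9, while H2AC11 and H2BC11 had -1.11 and -0.90. H2AC1 and H2BC1, the testis pair, were called in neither partner at 3 and 5 weeks.

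The genes around histone supply were read from lists chosen for their roles. Of 37 measured genes of S phase and DNA replication, 30 were higher with CSE 1% at 1 week, against 3.41% of all clusters. With CSE 10%, 20, 35 and 26 were lower at 1, 3 and 5 weeks, with medians of -0.34, -0.84 and -0.66. Of all clusters 8.44%, 12.5% and 39.6% were then lower, and 21.9% higher at 5 weeks. With the earlier controls as reference, 12 of the 37 were lower and 2 higher at 5 weeks, with a median of -0.20. The shares of all clusters were 16.0% and 15.0%. PCNA, the sliding clamp of the replication fork, changed with CSE 10% by -0.66 and -0.57 at 1 and 3 weeks and stood at -0.11 at 5 weeks, not called (-0.22 and called against the earlier controls). Of 22 genes of G2 and mitosis, 19 were higher with CSE 1% at 1 week, and 14, 20 and 12 were lower with CSE 10%, while 4 were higher at 5 weeks. By the earlier controls, 7 were lower and 2 higher at 5 weeks, with a median of -0.11. MKI67, a marker of cycling cells, changed by -1.06, -1.43 and -0.65, and stood at -0.03 in week 5 against the earlier controls. Its control means were 7.93 at 1 week and 10.42 at 3 weeks, and its mean of 9.15 with CSE 10% at 5 weeks lay between them. Within weeks, CSE 10% against CSE 1% lowered 36, 32 and 34 of the 37 and 21, 17 and 17 of the 22. In these comparisons 7.17%, 6.26% and 4.95% of all clusters were lower.

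With CSE 1% at 5 weeks, and in the week-5 controls, the histone genes and these lists differed in direction. Against the week-5 controls CSE 1% raised 12 and lowered 5 S phase genes and raised 11 and lowered 4 mitosis genes. Beside these, 31 histone genes were lower, and 20.3% of all clusters were higher and 33.5% lower. In the controls, 15 S phase and 14 mitosis genes were lower at 5 than at 3 weeks, and 1 and 0 were higher, while 37 histone genes were higher and 1 lower, and 21.8% of all clusters were lower. From 1 to 3 weeks 5.27% of all clusters were lower, and 1 histone gene. From 1 to 3 weeks both lists and the histone genes had gone up in controls, by 35 of 37 and 22 of 22 genes. Against the controls of weeks 1 and 3, CSE 1% at 5 weeks raised 30 S phase and 17 histone genes, where 7.86% of all clusters were higher. The S phase medians of its arrays ran from 8.65 to 8.77. They lay above those of the week-1 controls (7.41 to 7.57) and within those of the week-3 controls (8.63 to 8.79). The difference in direction was seen with the week-5 controls and not with the earlier ones.

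**Figure D5:**
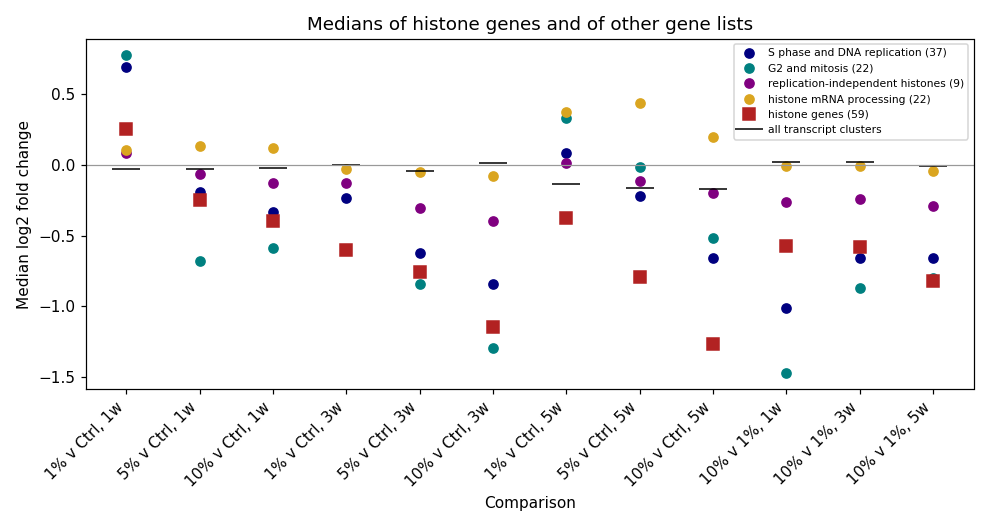
Median log2 fold change of the histone genes (red squares), of 4 other lists (dots, number of genes in brackets) and of all clusters (bars), for 9 comparisons with control and 3 of CSE 10% with CSE 1%. H1-10 is in both the histone genes and the replication-independent list. The histone median is the lowest of those plotted in the 3 comparisons at 5 weeks with control, while against CSE 1% it lies above the S phase and mitosis medians at 1 and 3 weeks.

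Genes that act on the histone messages moved in both directions. Of 22 measured genes of histone message processing and decay, CSE 10% raised 5 and lowered 0 by week 1, raised 3 and lowered 2 by week 3, and raised 10 and lowered 5 by week 5. As a share, 5 of 22 is below the 39.6% of all clusters that were lower in week 5, and against the earlier controls 4 were higher and 1 lower. SLBP, which binds the stem-loop, was higher by 0.50 with CSE 1% and by 0.36 with CSE 10% at 1 week, and stood at -0.21 and 0.07 with CSE 10% at 3 and 5 weeks, neither called. TUT4, a terminal uridylyl transferase, was higher by 0.73 at 3 weeks and by 1.52 at 5 weeks with CSE 10%, and XRN1, the main exonuclease of cytoplasmic decay, by 0.79 and 1.82. Against the earlier controls the week-5 values were 0.45 and 0.67, both called. In the controls they changed by -1.14 and -1.28 from 3 to 5 weeks. Against CSE 1% in the same week neither was called.

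Of 14 genes of histone gene transcription, CSE 10% raised 4 and lowered 1 by week 1, raised 0 and lowered 4 by week 3, and raised 4 and lowered 4 by week 5 (2 and 2 against the earlier controls). Of all clusters 8.27%, 14% and 21.9% were higher and 8.44%, 12.5% and 39.6% lower at these weeks. Against the earlier controls 15.0% were higher and 16.0% lower. The counts of the 14 genes are to be read beside these shares. NPAT, which gathers at histone loci, stood at 0.68 and 0.46 with CSE 10% at 1 and 3 weeks, not called, and was higher by 1.30 at 5 weeks, where its controls had changed by -1.06 since week 3. It was 0.46 against the earlier controls, not called. CDK2, the kinase that acts on NPAT, was higher by 0.30 at 1 week and lower (-0.91 and -0.55) at 3 and 5 weeks, but stood at -0.08 in week 5 against the earlier controls, not called. E2F1, a transcription factor of the G1 to S transition, was lower (-0.77 and -0.84) at 3 and 5 weeks, and -0.41 against the earlier controls.

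Of 19 histone chaperones, 3, 7 and 8 were lower and 1, 1 and 9 higher with CSE 10% at 1, 3 and 5 weeks, and 9 lower and 2 higher at 5 weeks against the earlier controls. ASF1B, the chaperone of H3 and H4 in dividing cells, changed by -0.70, -1.53 and -1.29, and CHAF1B, a subunit of the chromatin assembly factor CAF, by -0.42, -1.03 and -0.67. Their week-5 values against the earlier controls were -0.44 and -0.31, both called. Of 9 replication-independent histones and variants, 2, 7 and 5 were lower and 0 higher, with medians of -0.13, -0.40 and -0.20, and 7 were lower at 5 weeks against the earlier controls. H2AZ1, the variant H2A.Z, stood at 0.18 at 1 week, not called, and changed by -1.0 and -0.41 afterwards. Of 9 CDK inhibitors and pocket proteins, 1 was higher at 1 week, 1 higher and 1 lower at 3 weeks, and 4 higher and 4 lower at 5 weeks, or 1 and 1 against the earlier controls. At 5 weeks the 8 chaperones, 5 replication-independent histones and 4 inhibitors that were lower are to be read beside the 39.6% of all clusters. Likewise the 9 chaperones and 4 inhibitors that were higher are to be read beside 21.9%. CDKN1A, which encodes the inhibitor p21, was higher by 0.93 at 1 week and by 0.68 at 5 weeks (1.02 against the earlier controls), and by 1.16 against CSE 1% at 5 weeks.

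The 5 genes outside the rule whose group means ran most like the mean of the histone genes called lower were CENPX, POLD2, DCXR, UBE2S and H2AX, with Pearson correlations over the 12 group means of 0.979, 0.971, 0.964, 0.964 and 0.964. This is a description, since the points share arrays, controls and time.

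Among markers of other cells, 4 of 6 fibroblast, 2 of 3 leukocyte and 4 of 4 endothelial genes were lower with CSE 10% at 5 weeks. Against the earlier controls 1, 0 and 0 were. Of all clusters 39.6% and 16.0% were lower in these comparisons. In CSE 10% against CSE 1% none of these 13 markers was called at any week. Of 6 epithelial markers, 3, 5 and 6 were lower in CSE 10% than in CSE 1% at 1, 3 and 5 weeks. Their medians were -0.35, -0.38 and -0.44, and 7.17%, 6.26% and 4.95% of all clusters were lower. Of 19 housekeeping genes, 5, 10 and 6 were lower and 4, 2 and 5 higher with CSE 10% against control, and 10 lower and 5 higher in week 5 against the earlier controls. The part of these shifts in the histone values was not tested, apart from the centring on housekeeping genes.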

How the data were processed

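RNA of A549 cells was hybridised to 36 Human Gene 1.0 ST arrays, in 12 groups of 3. The deposited values are on the log2 scale. The authors corrected the background and normalised the arrays by RMA, and the submitters' notes name R 2.11.0, RMA and limma. RMA sets the arrays to one distribution, so a change shared by most genes cannot be seen. The genome build of the array annotation was not given in the sources used here. No detection values were used, and the number of arrays limits the precision.

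Groups came from the sample labels. The series table held 0 columns of other samples. Symbols came from the platform annotation, updated through gene identifiers: of 33297 clusters, 19460 had 1 symbol, 1754 several and 12083 none. Group means were fitted to all 36 arrays with limma 3.58.1 in R 4.3.3 (lmFit, contrasts, eBayes), and p-values were adjusted by Benjamini-Hochberg over all clusters. A call is an adjusted p under 0.05. The script was tested on simulated data. Replicates carry numbers, but nothing says that equal numbers share a culture. The study calls the experiments independent. The sample titles call the arrays of a group biological replicates, but do not say how far their cultures were kept apart. If the cultures were not separate, the p-values cover only the scatter among arrays.

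The members, lists and rules were chosen with earlier results of these data known. Named members were, per comparison with control, up to 6 called genes in each direction with the largest changes and arrays on one side of the controls, and up to 3 in the other comparisons. To these were added in each family the 2 members with the highest and the 1 with the lowest level, the testis members and the 5 with the widest range of group means. From each other list up to 4 genes with the smallest p were named, with SLBP, NPAT, PCNA and MKI67. Other genes named in the text were chosen after their values were seen.

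Alternatives were the study's thresholds (log2 fold change beyond 1 and B above 0), a separate fit, the replicate number as a block, the 60% brightest clusters, cyclic loess, centring on housekeeping genes, the controls of weeks 1 and 3 and leaving out each array. Promoters and starts are from RefSeq, GRCh38.p14, where 55 of 60 members matched.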

Additional observations from a re-analysis of the deposited data

Results flagged for a closer look

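The effect of CSE on the histone genes differed between weeks by a test of the difference itself (limma contrasts of the 2 effects, adjusted over all clusters). These differences use the controls of both weeks, and those from week 5 rest on the controls that stand apart. For CSE 1%, 26 members were lower at 5 weeks than at 1 week, against 10.2% of all clusters. At 3 weeks 24 were lower than at 1 week, against 2.74%. Between 1 and 5 weeks the effect changed by -2.09 in H2BC14, -2.05 in H1-5 and -2.02 in H2AC15, and by 0.79 in H4C8. Between 1 and 3 weeks it changed by -2.55 in H1-5, -1.87 in H2BC14 and -1.65 in H3C1.

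For CSE 5%, 18 members were lower at 5 weeks, against 15.7% of all clusters, with changes of -1.42 in H2AC15, -1.42 in H2AC17 and -1.31 in H4C2. At 3 weeks 3 members were, H2AC17 (-1.19), H2BC17 (-0.75) and H2BC11 (-0.57), against 1.54% of all clusters. For CSE 10%, 26 members were lower at 5 weeks, against 16.0% of all clusters, with changes of -2.09 in H2AC12, -1.96 in H2AC15 and -1.59 in H3C1. At 3 weeks 18 members were, against 4.46% of all clusters, with changes of -1.54 in H1-5, -1.43 in H2AC12 and -1.34 in H3C1. All of these changes are log2 differences. The counts moved when single arrays were left out, as given above for the differences between weeks.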

How the results depend on the processing

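Leaving out each array gave 41 to 44 and 47 to 50 lower genes with CSE 10% at 3 and 5 weeks. It also gave, for lower genes, 15 to 25 with CSE 10%, 8 to 17 with 5% and 0 to 0 with 1% at 1 week, 27 to 42 with 5% and 11 to 38 with 1% at 3 weeks, and 43 to 49 with 5% and 9 to 31 with 1% at 5 weeks. For higher genes it gave 0 to 4 with CSE 1% at 1 week, 0 to 1 with 1% at 3 weeks, 1 to 1 for CSE 5% at 1 week and for 1% and 5% at 5 weeks, and 1 to 2 for the others. It gave 12 to 22 and 23 to 38 for the rises in controls, 24 to 34, 13 to 38 and 29 to 42 for CSE 10% against 1%, and 0 to 1, 0 to 9 and 0 to 4 against 5%. For the differences between weeks (3 against 1, then 5 against 1) it gave 11 to 38 and 12 to 31 with CSE 1%, 1 to 5 and 8 to 21 with 5%, and 10 to 25 and 23 to 31 with 10%. With the study's thresholds no member was higher in any comparison with control (0). Lower were 4 and 8 with CSE 5% and 10% at 1 week, 4 and 13 with 1% and 5% at 3 weeks, 2 and 18 with 1% and 5% at 5 weeks, 17, 8 and 18 for CSE 10% against 1%, 0, 3 and 0 against 5%, and, between weeks in the order above, 10 and 6, 0 and 3, and 3 and 11. The rises in controls were then 7 and 5. A separate fit gave 5 lower with CSE 1% at 3 weeks and 15 at 5 weeks, 15 for CSE 10% against 1% and 0 against 5% at 3 weeks, 11 against 5% at 5 weeks, 13 rises in controls to week 3, 10 and 11 between weeks for CSE 1%, 1 for CSE 5% at 3 weeks, and 1 higher with CSE 5% and with 10% at 3 weeks. Among the 60% brightest clusters, which hold 43 members, 5 were higher with CSE 1% at 1 week and 1 with 5% and 10% at 3 weeks and 10% at 5 weeks. Cyclic loess gave 3 and 4 higher with CSE 1% and 5% at 5 weeks. Centring on housekeeping genes gave 2 higher and 20 lower with CSE 1% at 3 weeks, 1 lower with 1% at 1 week, and 14 and 1 between weeks for CSE 1% at 5 and CSE 5% at 3 weeks. Against the controls of weeks 1 and 3, CSE 1% at 5 weeks had 17 higher and 0 lower, 5% had 3 lower, and 10% had 1 higher and 27 lower. The direction turned with CSE 1% for H1-5 (0.76), H4C14 (0.55), H2BC14 (0.53), H4C4 (0.39), H2AC15 (0.30), H1-3 (0.21) and H4C8 (-0.068), and with CSE 10% for H4C8 (-0.12). The cause was not tested for any of these.

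The correlations of same-numbered deviations ran from -0.21 to 0.50, and were not over 0.1 in every pair, so the numbers were not taken to pair the arrays. With the replicate block 22, 43 and 50 members were lower with CSE 10% at 1, 3 and 5 weeks, and 2 were higher with CSE 1% at 1 week. No member had more than 1 cluster of its own, so averaging clusters of a gene was not run.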

Other observations

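A further 20 clusters carried a histone symbol beside another symbol and were outside the rule. Both clusters of H4C14 with H4C15 had the same changes in each comparison. So had both of H2AC18 to H2AC21 and a pair of those of H3C13 to H3C15, and the counts below hold these repeats. With CSE 10%, 9, 14 and 18 of them were lower and 2, 1 and 1 higher than control at 1, 3 and 5 weeks, with medians of -0.41, -1.13 and -1.22. CSE 10% against CSE 1% lowered 12, 11 and 16 of them, against 7.17%, 6.26% and 4.95% of all clusters. The cluster shared by H3C11 and H3C6 was higher with CSE 10% by 0.40 at 3 weeks and by 1.14 at 5 weeks. The cluster of H3C11 alone had changed by -2.04 and -1.59. Its week-5 value was -0.50 ± 0.21 against the earlier controls, not called. Which transcripts these probes detect was not tested.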
